A study of Bos taurus with 32 samples.

Results

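The caruncle (CAR) was compared with the intercaruncular endometrium (ICAR) within repeat breeder (RB) cows, using the 16 RB arrays among the 32 arrays of the series. The 16 arrays were chosen by their labels alone. They comprised 1 CAR and 1 ICAR array from the uterine horn ipsilateral to the corpus luteum and 1 of each from the contralateral horn, for each of 4 label numbers. Every CAR array was paired with the ICAR array of its own horn and number, which gave 8 pairs, and the 2 horns of a number were averaged, so that n = 4. The cows were non-lactating adult Japanese Black cows in the mid-luteal phase, Day 15 of the cycle, and none received an experimental treatment. RB cows had failed to conceive after repeated inseminations although their uterus and ovaries were normal by palpation, and their cycles were not always normal. The 4 non-RB cows, set beside them below, had conceived, had that pregnancy ended with a prostaglandin analogue and had cycled again. Both areas were dissected by hand from the middle of each horn, so each sample holds whole endometrium of its area with several cell types, and in such bulk tissue fewer cells of a type cannot be told apart from less RNA per cell. A value below is the log2 intensity of a probe minus that of its array's 75th percentile, a difference is CAR minus ICAR on that scale, and a positive difference means higher in CAR. A level describes its own probe and is not compared between genes.

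Caruncles are the aglandular, raised areas of ruminant endometrium at which the placenta forms its attachments, and they consist of dense stroma beneath a surface epithelium. The intercaruncular endometrium between them carries the uterine glands. These glands secrete histotroph, the mixture of proteins, lipids and sugars on which a conceptus lives before it attaches. Ciliated cells are found among the epithelial cells of ruminant glands and lumen.

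The areas did not separate by their labels in every pair. Over the 13010 probes tested, the CAR-ICAR differences of 7 RB pairs correlated with one another at 0.34 to 0.74, whereas those of the contralateral pair of number 3 correlated with these 7 at -0.76 to -0.41. The array labelled ICAR, contralateral, number 3 was closest to the array labelled CAR, ipsilateral, of the same number (r = 0.995), and the array labelled CAR, contralateral, number 3 was closest to ICAR, ipsilateral, number 3 (r = 0.992). In the ipsilateral pair of number 2 the array labelled CAR was closest to the array labelled ICAR of the contralateral horn (r = 0.995), and most differences of that pair were small but ran the same way as in the other 6. These correlations are across probes of single arrays, which share most of their levels, and are given as a description. The labels were kept as deposited throughout. Counts and leading genes are given with all 8 pairs and again without the contralateral pair of number 3, where number 3 is its ipsilateral pair alone. List counts and other genes are from the second fit unless stated, and no gene was called with all 8 pairs. Since that pair was left out after its values were seen, and because of them, the p-values of the second fit are not independent of the choice, and it is described below as the fit of 7 pairs.

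**Figure D1:**
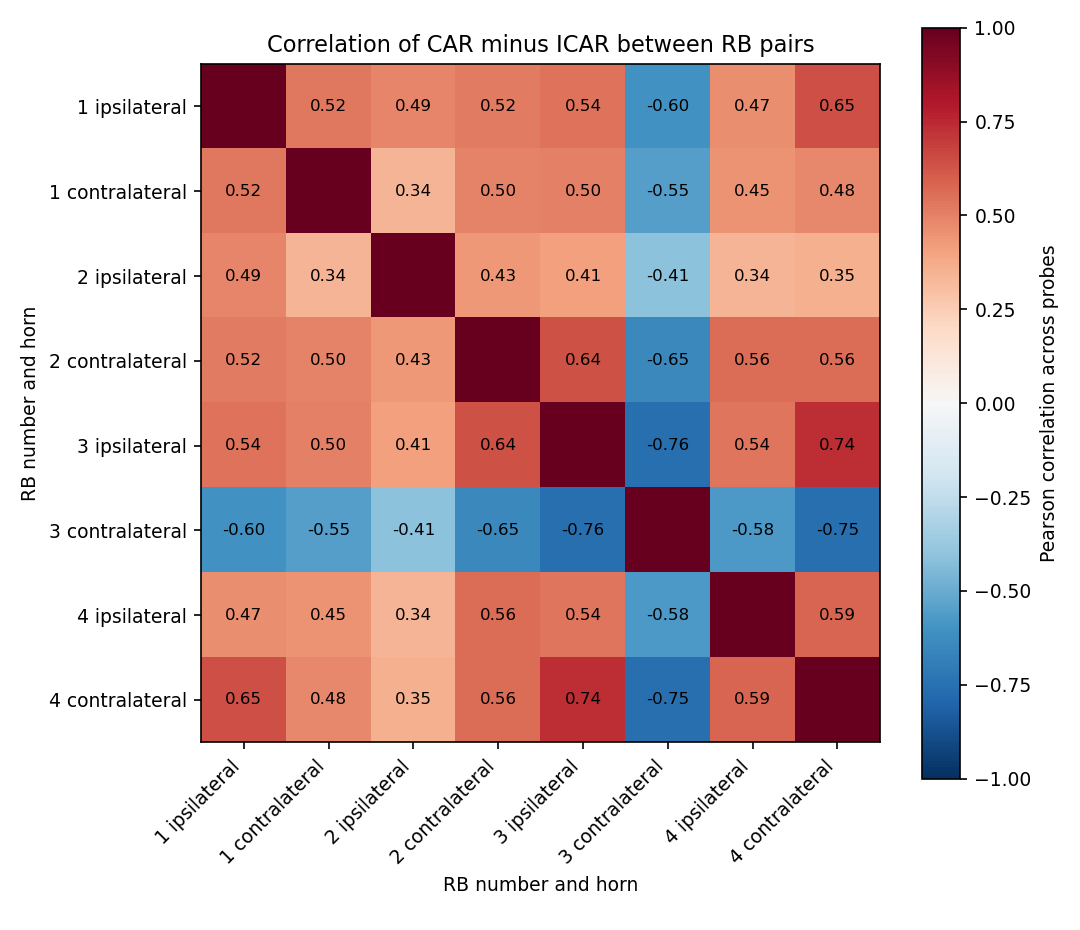
Pearson correlation, across the 13010 probes tested, between the CAR-ICAR log2 differences of the 8 RB pairs (rows and columns, by horn and label number; colour gives the correlation). The contralateral pair of number 3 is below 0 against all 7 others, from -0.76 to -0.41, and the 7 others lie between 0.34 and 0.74 among themselves.

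With the labels as given, 0 of the 13010 probes (0%) passed an adjusted p of 0.05 in limma, and the smallest adjusted p was 0.302. At an unadjusted p of 0.05 there were 2104 probes (16.2%), of which 1150 (8.84%) were higher and 954 (7.33%) lower in CAR. The methods' t-test on 8 against 8 arrays gave 0 probes after adjustment and 2016 before it. In the fit of 7 pairs 4680 probes (36%) had an unadjusted p under 0.05 and 2472 (19%) were called, 1252 higher in CAR (9.62%) and 1220 lower (9.38%). Of these, 576 higher and 650 lower probes carried a gene name, and 454 higher and 483 lower probes differed by at least 2-fold. In the pair left out, 2426 of the 2472 probes lay on the opposite side of 0. Without number 3 altogether, 1027 probes were called, of which 1002 were among the 2472, and without number 4 in the fit of 7 pairs 0 were called (smallest adjusted p = 0.0772, 3786 unadjusted). The ipsilateral horn alone, in which no pair ran opposite, gave 2 called probes (0.0154%) and 3242 at an unadjusted p of 0.05 (24.9%). Nothing in the labels says that the 4 numbers are 4 animals, although each group had 4 cows, and the p-values measure the spread between numbers. A two-sided exact sign-flip test over 4 numbers cannot reach 0.05 (smallest p = 0.13).

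Without the contralateral pair of number 3, all CAR arrays lay above all ICAR arrays in 315 probes (2.42%) and below them in 264 (2.03%). With all 16 arrays these counts were 0 (0%) and 1 (0.00769%). This single probe was for HNRNPH2, an RNA-binding protein of splicing, in which CAR arrays lay between 0.09 and 0.28 and ICAR arrays between 0.30 and 0.68. Its difference was -0.28 ± 0.11 (SE, unadjusted p = 0.0438). In the fit of 7 pairs it was not called (limma adjusted p = 0.098).

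Among the 12 named genes most higher in CAR were NPY, TNC, IL1A and CHRM2, and among the 12 most lower were PRSS16, BPIFB1, SPDEF and RIBC2. None of these 24 genes was called with all 8 pairs, and all 24 were called in the fit of 7 pairs, which also chose them, with the same sign in the 7 pairs as a condition. Without number 4 in that fit 0 of the 24 were called, against 22 to 24 without each other number. All 24 had an unadjusted p under 0.05 with the labels as given and in the ipsilateral horn alone, where their adjusted p ranged from 0.0549 to 0.0960. Both of these fits hold pairs that chose the genes, so their p-values are not independent of the choice. Slide 2 held numbers 2 and 3 and so the pair that ran opposite. Its mean difference had the sign of the 7 pairs in 24 of 24 genes, but its other pairs were among those 7, so the choice favoured that sign. Of the RB arrays, slide 6 held those of number 4 alone, and there the choice of genes fixed the sign. Slide 8 held those of number 1 apart from 1 CAR array. Its difference mixes the horns, so the choice favoured the sign there without fixing it.

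**Figure D2:**
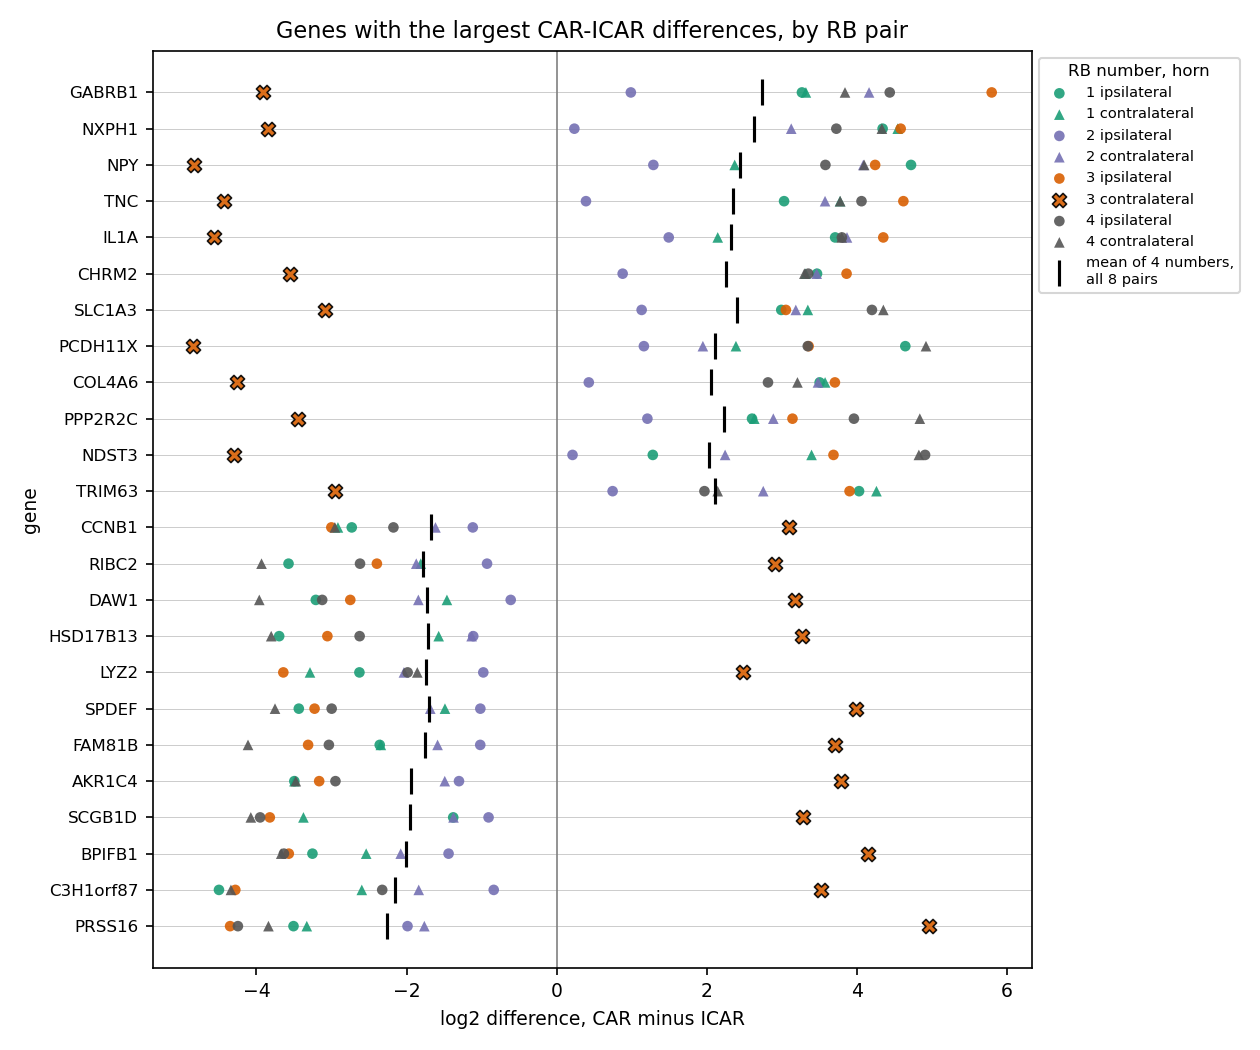
CAR-ICAR log2 difference (x axis) of the 12 genes most higher and the 12 most lower in CAR, in each of the 8 RB pairs (points, by horn and number), with the mean of the 4 numbers over all 8 pairs as a black tick. The contralateral pair of number 3 lies on the other side of 0 from the 7 remaining pairs, whose common sign was a condition of the choice, in all 24 genes, and the ipsilateral pair of number 2 lies nearest to 0 of these 7 in most of them.

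TNC encodes tenascin C, a matrix glycoprotein of tissue remodelling. Its CAR values had a lowest of -2.06, a median of 1.38 and a highest of 2.46, against -2.46, -2.11 and 2.54 in ICAR. The areas overlapped because the array labelled ICAR, contralateral, number 3 was the highest of all 16, and 2 arrays labelled CAR, ipsilateral of number 2 and contralateral of number 3, lay among the other ICAR arrays. The differences in the ipsilateral horn were 3.03, 0.39, 4.62 and 4.06 for numbers 1 to 4, and those in the contralateral horn were 3.77, 3.58, -4.44 and 3.78. Their mean was 2.35 ± 0.62 (SE, n = 4, unadjusted p = 0.00892) with the labels as given and 3.48 ± 0.40 without the pair that ran opposite, an 11.2-fold difference (limma adjusted p = 0.0114).

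NPY, which encodes neuropeptide Y, a transmitter of sympathetic nerves, lay at -4.01, 0.02 and 0.42 in CAR (lowest, median, highest) and at -4.85, -3.84 and 0.82 in ICAR. Again the highest ICAR array was that labelled contralateral, number 3, and the other 7 ICAR arrays were all at or below -3.36. The difference was 2.44 ± 0.68 (unadjusted p = 0.0114) with all pairs and 3.58 ± 0.25 in the fit of 7 pairs, or 11.9-fold (adjusted p = 0.0114). Among the 12 genes most higher in CAR, NPY had the largest of these differences of those well above background on all 16 arrays.

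IL1A encodes the cytokine interleukin 1 alpha. CAR arrays had a lowest value of -6.63, a median of -3.30 and a highest of -2.06, against -7.44, -6.48 and -2.06 for ICAR arrays. Leaving out the opposite pair, every CAR array was above every ICAR array, since the 7 CAR arrays began at -5.16 and the 7 ICAR arrays ended at -5.90. The difference was 2.32 ± 0.61 (unadjusted p = 0.00883) and then 3.44 ± 0.29, or 10.8-fold (adjusted p = 0.0114).

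CHRM2, the muscarinic M2 receptor for acetylcholine, was at -5.89, -3.27 and -2.44 in CAR and at -6.90, -6.24 and -2.34 in ICAR. Its areas did not overlap over the 14 arrays, and its difference was 2.26 ± 0.55 with all pairs (unadjusted p = 0.00615) and 3.19 ± 0.27 in the fit of 7 pairs, or 9.11-fold (adjusted p = 0.0114). The probe that carried this value is shown because CHRM2 was among the clearest genes higher in CAR. Each probe was a single strand of 60 bases, printed 5′ to 3′ as deposited, and its place in the genome was not analysed here.
CHRM2: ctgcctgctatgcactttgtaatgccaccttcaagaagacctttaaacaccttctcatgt

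GABRB1, a beta subunit of the GABA type A receptor, and NXPH1, a secreted ligand of neurexins, had the largest fitted differences of these 12 genes, but both were dim. GABRB1 was well above background on 7 of 8 CAR arrays and 1 of 8 ICAR arrays, and without the opposite pair on 7 of 7 and 0 of 7, so that only a bound can be given. Against the lowest signal well above background on each ICAR array it was at least 4.34-fold higher in CAR (fitted difference 3.95 ± 0.50, adjusted p = 0.0114, and 2.74 ± 0.49 with all pairs, unadjusted p = 0.00146). NXPH1 was likewise at least 2.70-fold higher, with 6 of 7 CAR arrays and 0 of 7 ICAR arrays well above background (3.68 ± 0.49, adjusted p = 0.0118, and 2.63 ± 0.69 with all pairs). In both genes the ICAR array above background was the one labelled contralateral, number 3.

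The other genes of the 12 higher in CAR had differences of 2.96 to 3.16 in the fit of 7 pairs and of 2.03 to 2.40 with all pairs. They were SLC1A3, a glutamate and aspartate transporter (3.16 ± 0.32, 8.96-fold), PCDH11X, a protocadherin (3.14 ± 0.40), COL4A6, a chain of basement membrane collagen IV (3.05 ± 0.29), PPP2R2C, a regulatory subunit of protein phosphatase 2A (3.05 ± 0.37), NDST3, an enzyme that modifies heparan sulphate (3.03 ± 0.57), and TRIM63, a ubiquitin ligase best known from striated muscle (2.96 ± 0.45). Their adjusted p-values were between 0.0114 and 0.0198. PCDH11X, NDST3 and TRIM63 were well above background on 2, 1 and 3 of the 7 ICAR arrays, respectively, so their differences rest in part on dim ICAR values.

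Of the named genes lower in CAR, PRSS16, a serine protease first known from the thymus, lay at -3.96, -2.63 and 1.69 in CAR and at -3.26, 0.64 and 1.74 in ICAR. The highest CAR array and the lowest ICAR array were both from the contralateral pair of number 3, and the areas did not overlap without it. Its difference was -2.26 ± 0.69 with all pairs (unadjusted p = 0.0174) and -3.42 ± 0.40 without that pair, or 10.7-fold lower in CAR (adjusted p = 0.0114).

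BPIFB1, a secreted protein of mucosal glands in the family of bactericidal permeability-increasing proteins, was at -3.52, -2.29 and 1.50 in CAR and at -2.65, 0.43 and 1.64 in ICAR. The difference was -2.97 ± 0.32 in the fit of 7 pairs (7.83-fold, adjusted p = 0.0114), with no overlap over the 14 arrays. SPDEF, a transcription factor of secretory epithelial cells, was at -2.78, -1.89 and 1.20 in CAR and at -2.79, 0.83 and 1.38 in ICAR, a difference of -1.70 ± 0.58 with all pairs (unadjusted p = 0.0267) and of -2.60 ± 0.34 in the fit of 7 pairs (6.08-fold, adjusted p = 0.0114). In SPDEF the CAR array of the ipsilateral horn of number 2 lay above the ICAR array of the contralateral horn of number 1, so the areas overlapped even over the 14 arrays. LYZ2, a lysozyme, was lower by 5.69-fold (-2.51 ± 0.36, adjusted p = 0.0121). SCGB1D, a secretoglobin, was measured well above background on 3 of 7 CAR and 7 of 7 ICAR arrays, and its fitted difference of -2.84 ± 0.48 rests in part on dim CAR values. Further genes were AKR1C4, an aldo-keto reductase that acts on steroids (-2.82 ± 0.35), HSD17B13, a lipid droplet enzyme (-2.51 ± 0.35), and CCNB1, listed as cyclin B1 (-2.44 ± 0.28). With all pairs the differences of the 12 lower genes ranged from -2.26 to -1.68.

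The last 4 of the 12 belonged to cilia or had no settled role. DAW1, a factor in the assembly of axonemal dyneins, differed by -2.46 ± 0.35, and RIBC2, a protein inside the axonemal microtubules, by -2.44 ± 0.29 (5.52-fold and 5.43-fold, adjusted p = 0.0121 and 0.0114). FAM81B and C3H1orf87 had fitted differences of -2.64 ± 0.38 and -3.13 ± 0.45, but each was well above background on 2 of 7 CAR and 7 of 7 ICAR arrays. The probes of RIBC2 and of TEKT1, a tektin of the axoneme described below, are shown because genes of cilia made up the group with the largest median difference.
RIBC2: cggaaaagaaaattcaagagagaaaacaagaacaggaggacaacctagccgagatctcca
TEKT1: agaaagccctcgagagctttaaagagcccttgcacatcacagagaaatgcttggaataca

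**Figure D3:**
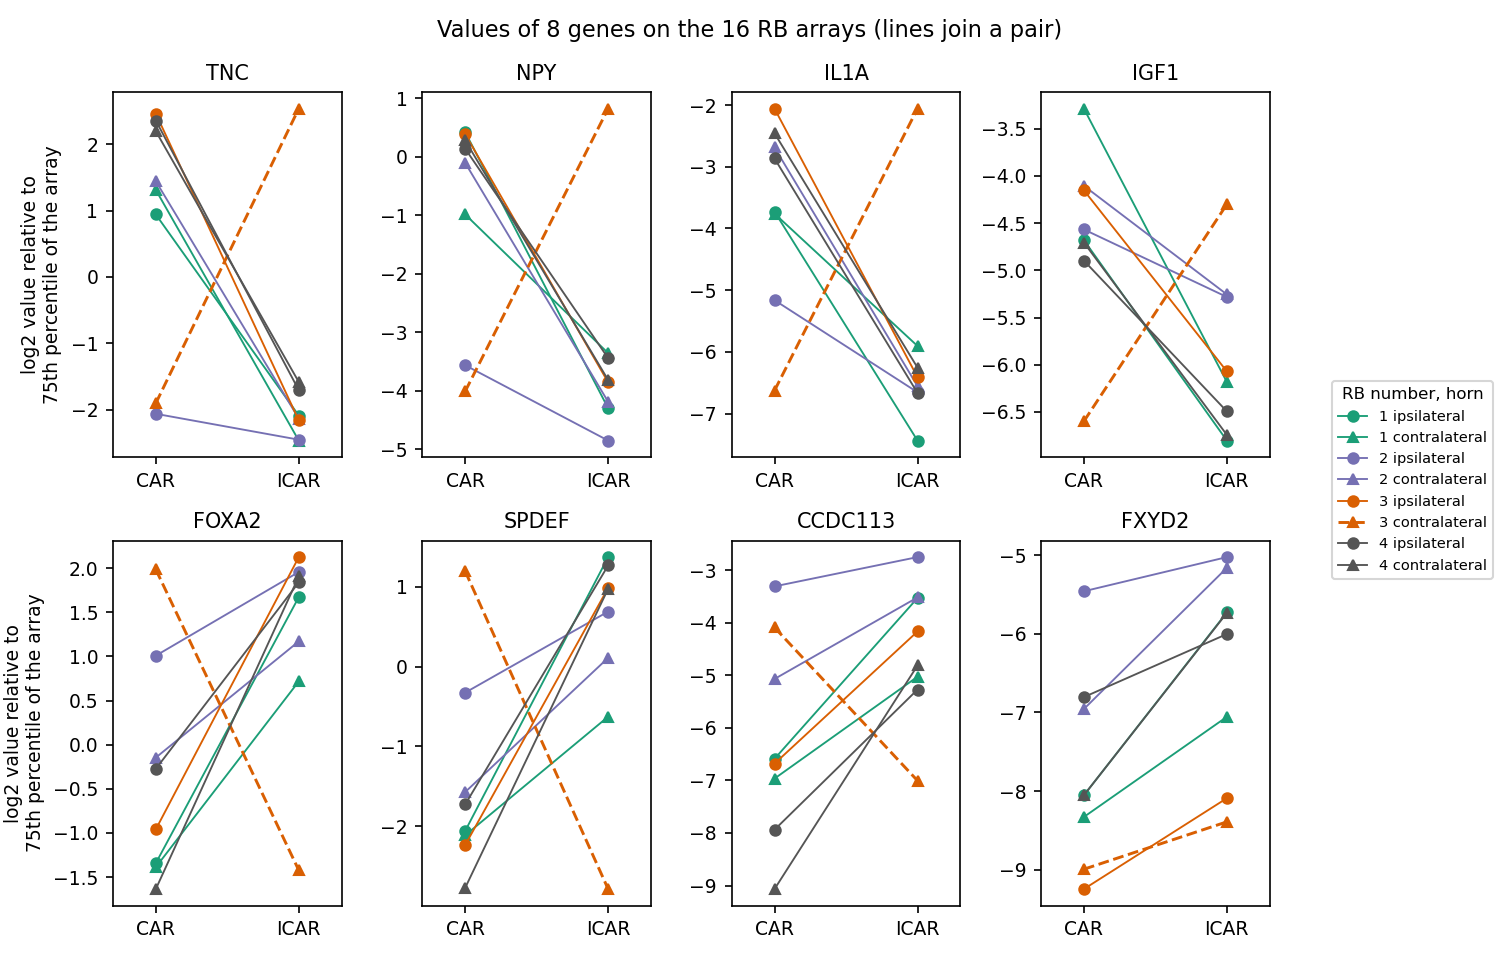
Log2 intensity minus that of the array's 75th percentile (y axis) of TNC, NPY, IL1A, IGF1, FOXA2, SPDEF, CCDC113 and FXYD2 on the 8 CAR and 8 ICAR arrays of RB cows, with a line joining each pair and a dashed line for the contralateral pair of number 3. The dashed line runs against the 7 others in every gene plotted except FXYD2, where it runs the same way.

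The 11 cell type marker lists and 12 pathway lists had 0 called members each with the labels as given. The counts that follow are from the fit of 7 pairs, in which the median difference of all 13010 probes was 0.03. All lists were chosen with earlier results of these data known, and neither counts nor medians were tested as lists. Over all probes 9.62% were called higher and 9.38% lower, which is the background of each count. Without number 4 every list had 0 called members. Other counts that moved by more than 1.5 times when a number was left out are given beside the list or here. Without number 1 there were 0 calls in T and NK cells and in nerve and Schwann cells, 1 higher in macrophages and 0 higher in the steroid list, which had 1 higher without number 3. Complement and cell cycle had 0 higher without number 1 or number 3, and the TGF-beta list had 0 lower without number 1 or number 3 and 1 lower without number 2.

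Epithelial markers were lower in CAR. Of 9 ciliated cell markers tested, 8 were called lower (background 9.38%) and 0 higher, with a median difference of -1.98, and -1.30 with all 8 pairs. The list's median was -2.26, -0.57, -1.81 and -1.10 in the ipsilateral pairs of numbers 1 to 4 and -1.45, -1.55, 2.41 and -2.57 in the contralateral pairs. Thus 7 pairs had lower ciliary transcripts in CAR, the contralateral pair of number 3 had higher ones, and the ipsilateral pair of number 2 had the smallest difference. CCDC113, a protein of motile cilia, led the list with -9.07, -6.63 and -3.30 in CAR against -7.00, -4.49 and -2.75 in ICAR, a difference of -2.38 ± 0.36 (5.22-fold, adjusted p = 0.0130), although 5 of 7 CAR arrays were well above background. SPAG6 and RSPH1, of the central apparatus and the radial spokes, differed by -2.19 ± 0.29 and -2.05 ± 0.21, CFAP45 by -2.11 ± 0.26, TEKT1 by -1.98 ± 0.27 and DNAI1, an axonemal dynein chain, by -1.35 ± 0.13. The exception was TPPP3 at -0.10 ± 0.12 (adjusted p = 0.56). Without number 1, 2 or 3 the count was 8.

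Of 15 markers of luminal and general epithelium, 11 were lower and 0 higher, with a median of -0.95 (-0.66 with all pairs). Without number 1 there were 7 lower. The keratins KRT7, KRT8 and KRT19 differed by -0.87 ± 0.17, -1.05 ± 0.16 and -0.53 ± 0.11. The tight junction claudins CLDN7 and CLDN10 differed by -1.26 ± 0.16 and -1.49 ± 0.22, and PKP3, a desmosomal plakophilin, by -1.39 ± 0.11. GRHL2 and EHF, transcription factors of epithelium, differed by -1.23 ± 0.19 and -1.14 ± 0.17. CDH1, CLDN3, CLDN4 and JUP were not called, and the difference of CDH1 was 0.37 ± 0.54.

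Of 13 markers of glands and histotroph, 5 were lower (FOXA2, BPIFB1, BPIFA1, SPDEF and MUC1) and 0 higher, with a median of -0.64 (-0.48 with all pairs). FOXA2, a transcription factor needed for uterine gland development, was at -1.63, -0.62 and 1.98 in CAR and at -1.42, 1.75 and 2.12 in ICAR. The array labelled CAR with the highest value and that labelled ICAR with the lowest were those of the contralateral pair of number 3. Its difference was -1.59 ± 0.50 with all pairs (unadjusted p = 0.0195) and -2.40 ± 0.32 in the fit of 7 pairs (5.28-fold, adjusted p = 0.0119), and a second FOXA2 probe differed by -2.50 ± 0.34. MUC1, a surface mucin, differed by -1.30 ± 0.18. BPIFA1, a secreted relative of BPIFB1, differed by -1.01 ± 0.18. Other products of glands in the list were SERPINA14 (uterine milk protein, -0.55 ± 0.21), SPP1 (osteopontin, 0.37 ± 0.39), LTF (lactoferrin, -0.45 ± 0.15) and GRP (gastrin-releasing peptide, -0.79 ± 0.23), and none of these was called.

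Stromal markers were higher in CAR in 6 of 13 genes (background 9.62%) and lower in 0, with a median of 0.57 (0.42 with all pairs). Without number 1 or without number 3 the count was 1. The fibrillar collagen chains COL1A1 and COL1A2 differed by 0.98 ± 0.22 and 1.11 ± 0.16, PDGFRA, a growth factor receptor of fibroblasts, by 0.83 ± 0.16, NR2F2, a progesterone-regulated factor of uterine stroma, by 0.77 ± 0.18, PRRX1 by 0.77 ± 0.15 and THY1 by 0.72 ± 0.15. VIM and DCN, which stromal cells express broadly, were at -0.04 ± 0.10 and 0.09 ± 0.11 and not called. TCF21, a transcription factor of mesenchyme, had a negative difference of -1.08 ± 0.35 and was not called (adjusted p = 0.080, and -0.63 ± 0.22 with all pairs, unadjusted p = 0.0281). Smooth muscle markers DES and SMTN were higher by 0.93 ± 0.15 and 1.07 ± 0.22, and the other 9 of 11, ACTA2 among them at -0.06 ± 0.18, were not called. Without number 1 and without number 3 these 2 calls became 0 and 1. The mean level of the smooth muscle list lay between -1.38 and -0.85 over all 8 CAR arrays, against -1.92 and -0.95 over all 8 ICAR arrays. The part of smooth muscle in the differences of other genes was not tested.

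In the lists of endothelium (11 genes), B and plasma cells (5), macrophages (10) and red blood cells (3) 0 genes were called, with medians between -0.16 and 0.11. In T and NK cells 1 of 12 was called, NKG7, a granule protein of cytotoxic cells, at -0.55 ± 0.13 (adjusted p = 0.0321). It was dim, being well above background on 2 CAR and 4 ICAR arrays of 7 each, and its difference with all pairs turned to 0.0455 with normexp background correction. Of 3 tested markers of nerve and Schwann cells, S100B was lower in CAR (-1.25 ± 0.23) and UCHL1 was not called (-0.44 ± 0.36). The mean level of the list lay between -2.06 and -1.01 over all 8 CAR arrays, against -1.87 and -0.75 over all 8 ICAR arrays. Without the contralateral pair of number 3 the ranges were -2.06 to -1.28 and -1.24 to -0.75, which did not overlap. No member of this list was higher in CAR, and the cells that express NPY, CHRM2 and GABRB1 were not determined.

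**Figure D4:**
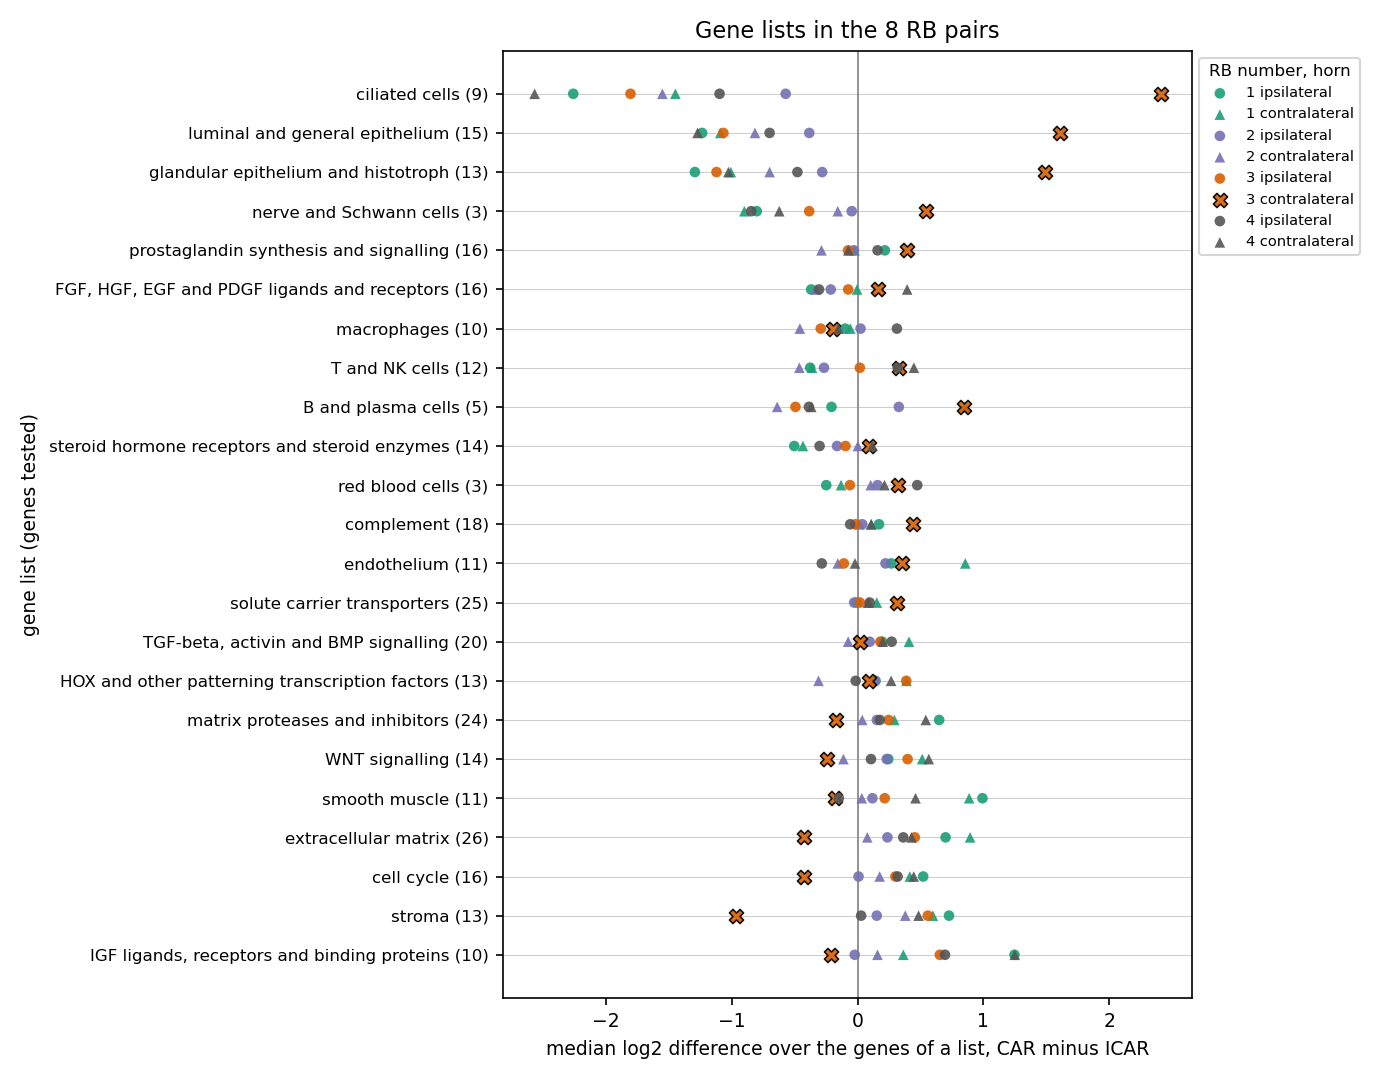
Median CAR-ICAR log2 difference (x axis) of the tested members of each of the 23 gene lists in each of the 8 RB pairs (points, the contralateral pair of number 3 as an outlined cross). Ciliated, luminal and glandular lists lie below 0 in 7 pairs, ciliated cells from -2.57 to -0.57, and the stroma list above 0 in the same 7 pairs, from 0.03 to 0.73.

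Genes of the extracellular matrix were called only towards CAR. Of 26 matrix genes 7 were higher and 0 lower, with a median of 0.41 (0.27 with all pairs), but 2 were higher without number 1 and 3 without number 3. Besides TNC they were the small leucine-rich proteoglycans OGN (1.84 ± 0.38, 3.57-fold), FMOD (1.56 ± 0.26, 2.94-fold) and BGN (0.96 ± 0.17), and SPARC (0.61 ± 0.16), THBS2 (0.64 ± 0.17) and HSPG2, the basement membrane perlecan (0.61 ± 0.14). FMOD arrays began at -0.39 in CAR with a median of 1.08 and a highest of 1.73, against -0.98, -0.47 and 0.94 in ICAR. In FMOD the areas separated fully over the 14 arrays. FN1, ELN, POSTN and FBN1 had differences of 0.20 to 0.41 and were not called, and neither were VCAN (-0.50 ± 0.15, adjusted p = 0.065) and SMOC1 (-0.33 ± 0.30, and 0.12 with all pairs), whose differences were negative.

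Of 24 matrix proteases and inhibitors 6 were higher in CAR and 0 lower, with a median of 0.28 (0.21 with all pairs), but 1 was higher without number 1 and 2 without number 3. The metalloproteinases MMP1 (0.48 ± 0.12), MMP2 (1.04 ± 0.19) and MMP19 (1.11 ± 0.12) and the aggrecan-cleaving ADAMTS5 (0.82 ± 0.16) were among them. So were 2 protease inhibitor family members, TIMP1 (0.93 ± 0.15), which inhibits metalloproteinases, and SERPINF1 (0.72 ± 0.15). TIMP2, a second inhibitor of the first family, was at -0.43 ± 0.15 and was not called (adjusted p = 0.096).

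Among ligands, receptors and binding proteins of insulin-like growth factors, which regulate endometrial and conceptus growth, 3 of 10 were higher in CAR and 0 lower, with a median of 0.68 (0.51 with all pairs). Without number 1 or number 3 there were 2 such genes, and without number 2 there were 5. IGF1 was at -6.60, -4.62 and -3.29 in CAR and at -6.80, -6.13 and -4.30 in ICAR. All 7 CAR arrays exceeded all 7 ICAR arrays once the opposite pair was left out, and the difference was 1.80 ± 0.25 (3.47-fold, adjusted p = 0.0121, and 1.27 ± 0.43 with all pairs, unadjusted p = 0.025). A second IGF1 probe differed by 1.61 ± 0.25. The binding proteins IGFBP4 and IGFBP6 differed by 1.11 ± 0.14 and 1.05 ± 0.19. The differences of IGF2, IGFBP3 and IGFBP5 were 0.66 ± 0.34, 0.69 ± 0.21 and 0.75 ± 0.24, none of them called, and IGF1R, the receptor of IGF1, was at -0.27 ± 0.12.

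Prostaglandin genes were called in both directions, 5 higher and 3 lower of 16, with a median of -0.22 (-0.14 with all pairs). Without number 1 there was 1 call each way, and without number 3 there were 1 higher and 2 lower. HPGD, the dehydrogenase that inactivates prostaglandins, was at 0.75, 1.28 and 3.35 in CAR and at 1.43, 3.13 and 3.49 in ICAR. The areas were fully separated over the 14 arrays, and the difference was -1.87 ± 0.17 (3.64-fold, adjusted p = 0.0114). SLCO2A1, a prostaglandin transporter, and AKR1B1, a prostaglandin F synthase of bovine endometrium, were also lower in CAR (-0.52 ± 0.10 and -0.97 ± 0.16). PTGES, PTGIS and PTGDS, the synthases of prostaglandin E2, prostacyclin and prostaglandin D2, were higher by 1.33 ± 0.31, 0.87 ± 0.16 and 0.73 ± 0.13. The prostaglandin E2 receptors PTGER4 and PTGER3 were higher by 1.31 ± 0.20 and 1.01 ± 0.21, while PTGER1 and PTGER2 were at 0.42 ± 0.16 and -0.60 ± 0.20 and not called. PTGS2, the inducible cyclooxygenase at the head of the pathway, was at -0.45 ± 0.16 (adjusted p = 0.099).

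Estrogen receptors differed in opposite directions. ESR2, estrogen receptor beta, was at -5.06, -4.40 and -1.83 in CAR and at -5.30, -2.41 and -1.88 in ICAR, a difference of -2.18 ± 0.28 (4.52-fold, adjusted p = 0.0114). ESR1, estrogen receptor alpha, differed by 0.95 ± 0.18 (1.93-fold, adjusted p = 0.0211), but a second ESR1 probe differed by 0.48 ± 0.26 and was not called (adjusted p = 0.227). The first ESR1 probe was well above background on 7 CAR and 5 ICAR arrays of 7 each. The progesterone receptor PGR was at -0.06 ± 0.13, and the oxytocin receptor OXTR at -1.04 ± 0.28 with an adjusted p of 0.051. Of the 14 genes of this list 2 were higher, ESR1 and the estradiol-forming HSD17B1 (0.54 ± 0.13), and 2 lower, ESR2 and AKR1C4.

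In the WNT pathway 4 of 14 genes were higher and 2 lower, with a median of 0.29 (0.25 with all pairs), against 1 and 1 without number 1, 4 and 1 without number 2 and 2 and 1 without number 3. The genes called higher in CAR were extracellular or membrane inhibitors of WNT, namely SFRP1 (1.70 ± 0.23, 3.25-fold), SFRP2 (1.33 ± 0.28), FRZB (1.26 ± 0.20) and APCDD1 (0.74 ± 0.16). Both genes lower in CAR were receptors, the R-spondin receptor LGR4 (-1.11 ± 0.14) and the frizzled receptor FZD6 (-0.95 ± 0.21). SFRP1 was at 1.88, 3.44 and 4.25 in CAR and at 1.44, 1.88 and 3.80 in ICAR, with full separation over the 14 arrays. The ligands WNT5A and WNT2B were at 0.49 ± 0.14 and 0.28 ± 0.24 and not called. The R-spondin RSPO3, which promotes WNT signalling, was at 0.83 ± 0.25, above APCDD1, and was not called either (limma adjusted p = 0.065).

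In the TGF-beta, activin and BMP list 3 of 20 genes were higher and 2 lower, shares near those of all probes (9.62% and 9.38%). The activin-binding FST (0.98 ± 0.18) and its relative FSTL1 (0.90 ± 0.13) were higher together with the inhibin subunit INHA (0.94 ± 0.18), while the activin receptor ACVR2B (-0.52 ± 0.12) and the transcriptional inhibitor ID2 (-0.79 ± 0.16) were lower. A second FST probe was at 0.93 ± 0.25 with an adjusted p of 0.0521. In the FGF, HGF, EGF and PDGF list, with 1 call each way without number 1 or number 3, 3 of 16 were higher, all ligands, HGF (1.21 ± 0.26, well above background on 4 of 7 ICAR arrays), FGF2 (1.12 ± 0.13) and FGF10 (0.68 ± 0.12). A second FGF2 probe differed less, by 0.70 ± 0.12 (limma adjusted p = 0.0163). The 3 lower were FGF9 (-1.06 ± 0.15), the receptor ERBB3 (-1.07 ± 0.19) and the receptor KIT (-0.56 ± 0.13). MET, the receptor of HGF, and FGFR2, the receptor of FGF10, were at -0.54 ± 0.23 and -0.42 ± 0.14 and not called.

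Patterning transcription factors were called both ways, 4 higher and 3 lower of 13, or 2 and 2 without number 1 or number 3 and 2 and 3 without number 2. HOXA10 and HOXA11, the paralogous homeobox genes needed for uterine receptivity in mice, differed by 1.30 ± 0.15 (2.46-fold) and 1.16 ± 0.16 (2.23-fold), and TWIST1 and TBX3 by 0.57 ± 0.13 and 0.53 ± 0.12. MSX1, a homeobox gene of uterine epithelium, was lower by 3.12-fold (-1.64 ± 0.25, adjusted p = 0.0129), as were HOXC6 (-0.85 ± 0.13) and HOXB7 (-0.72 ± 0.12). HOXA10 lay at 1.96, 3.47 and 3.94 in CAR against 1.90, 2.23 and 3.82 in ICAR, and MSX1 values were 1.50, 2.21 and 3.55 against 1.35, 3.77 and 4.17. In both genes the areas separated over the 14 arrays and overlapped over all 16.

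Of 25 solute carriers 5 were higher and 3 lower, or 2 and 2 without number 1 and 2 and 3 without number 3. Besides SLC1A3, the cationic amino acid transporter SLC7A2 (1.31 ± 0.19), the myo-inositol transporter SLC5A3 (1.21 ± 0.26), SLC6A14 (0.57 ± 0.12) and the lactate transporter SLC16A1 (0.49 ± 0.12) were higher. The glucose transporter SLC2A12 (-1.48 ± 0.21), the phosphate transporter SLC34A2 (-1.47 ± 0.24) and the glutamate transporter SLC1A1 (-1.15 ± 0.18) were lower. SLC1A1 and SLC1A3, which carry the same amino acids, thus differed in opposite directions. Of 18 complement genes C1R (0.91 ± 0.16) and the C1 inhibitor SERPING1 (0.77 ± 0.19) were higher, and C5 (-1.84 ± 0.37, well above background on 5 of 7 CAR arrays) and the complement inhibitor CD55 (-1.53 ± 0.23) lower, again shares near those of all probes. Of 16 cell cycle genes CCNA2 (0.58 ± 0.14) and AURKB (0.51 ± 0.12) were higher and the probe listed as CCNB1 was lower. CCNB2, also a cyclin B, was at 0.77 ± 0.28 and not called. The cell cycle counts too were near those of all probes. The median of the cell cycle list was 0.43 (0.32 with all pairs), with 14 differences above 0 and 2 below.

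A few genes kept their direction in the contralateral pair of number 3. Of the 2472 probes called in the fit of 7 pairs, 27 higher and 19 lower probes did so, and over all probes tested 162 (1.25%) had the same sign in all 8 pairs against 3163 (24.3%) in the 7. FXYD2, the gamma subunit of the sodium pump, was lower in CAR in 8 of 8 pairs, by -2.32, -0.43, -1.15 and -0.80 in the ipsilateral and -1.27, -1.80, -0.60 and -2.32 in the contralateral horn. Its difference was -1.34 ± 0.18 with all pairs (unadjusted p = 0.000329) and -1.41 ± 0.15 in the fit of 7 pairs (adjusted p = 0.0114), and it was well above background on 3 CAR and 6 ICAR arrays of 8 each. RPLP0, a ribosomal protein gene often used as a reference, was higher in CAR in 8 of 8 pairs, with differences from 0.02 to 1.41 and a mean of 0.59 ± 0.11 (unadjusted p = 0.00209). Both genes were picked after their values were seen.

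The horns were compared within each number. For the CAR-ICAR difference of the ipsilateral against the contralateral horn, 0 of 13010 probes (0%) were called by limma and 150 (1.15%) had an unadjusted p under 0.05, with a smallest adjusted p of 0.948. The contralateral horn includes the pair that ran opposite. Among the named genes with the smallest p-values were IL1R2, the decoy receptor of interleukin 1, with -1.22 in the ipsilateral and 0.53 in the contralateral horn (difference -1.74 ± 0.34, unadjusted p = 0.00239), IQCF1 (1.16 ± 0.28), FOXD1 (-1.18 ± 0.30), IRAK2 (1.05 ± 0.27) and VNN1 (-1.27 ± 0.33). IRAK2 was well above background on 2 of 8 CAR and 2 of 8 ICAR arrays, and its sign turned with normexp background correction (-0.0354). These had an adjusted p of 0.999, and the difference had the same sign in 4 of 4 numbers for each, which gives the smallest exact sign-flip p possible, 0.13. ANKS4B, which encodes a scaffold of epithelial microvilli, was the only named gene called in the ipsilateral horn alone, with differences of -3.16, -2.34, -2.69 and -2.23 (mean -2.61, adjusted p = 0.0346). Without the contralateral pair of number 3 it was well above background on 3 of 7 CAR and 7 of 7 ICAR arrays. Its differences thus rest in part on dim CAR values. In the contralateral horn its difference was -1.69 for number 1, 4.78 for number 3 and 0.08 for number 4. That of number 2 was again negative, whereas that of number 4, like that of number 3, was far from its ipsilateral value.

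To ask whether these differences were particular to RB cows, the CAR-ICAR difference was tested between 4 RB and 4 non-RB numbers. With the labels as given 0 of 12919 probes (0%) were called and 113 (0.875%) had an unadjusted p under 0.05, and without the opposite pair 0 were called and 639 (4.95%) did. The smallest adjusted p-values in limma were 1.0 and 0.861. In non-RB cows alone 0 of 12844 probes (0%) were called, with 652 (5.08%) at an unadjusted p under 0.05. Leaving out number 2 of the non-RB cows gave 102 calls. All 24 leading genes had the same sign in the mean of non-RB cows, the 12 higher genes with means from 0.78 to 2.02 and the 12 lower from -2.66 to -0.61. Of the 2472 called probes 2251 (91.1%) had the same sign in the non-RB mean, against 66.9% of all 13010. The differences between groups were not called for any of the 24, with 0 unadjusted p-values under 0.05 among them. Non-RB pairs were mixed, with mean correlations to the 7 RB pairs of -0.12 to 0.61. The pairs at -0.12, 0.04, 0.17 and 0.19 had their arrays on different slides, those at 0.29, 0.41, 0.57 and 0.61 on the same slide. The ipsilateral pair of RB number 1 was split too (0.53 with the others of the 7). The 2 non-RB arrays of slide 1 had 351 and 100 outlier spots, and without them 0 probes were called between groups. The part of slide and array quality in the non-RB values was not tested.

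The named genes with the smallest interaction p-values were all uncalled (adjusted p of 1.0). CLGN, a calnexin-like chaperone, differed between areas by 1.44, 0.65, 0.61 and 1.37 in RB numbers 1 to 4 and by 0.29, -0.09, -0.46 and 0.55 in non-RB numbers. The groups did not overlap (interaction 0.94 ± 0.31, unadjusted p = 0.0122, two-sided exact permutation p = 0.0286, the smallest for 4 against 4), but CLGN was well above background on 3 CAR and 1 ICAR arrays of RB cows. NKG7 was lower in CAR of RB cows and higher in CAR of non-RB cows (-0.55 against 0.31, interaction -0.86 ± 0.24, unadjusted p = 0.00495), and normexp background correction turned this direction. GGT5, IGCGAMMA and CARTPT had interactions of 0.93 ± 0.31, -1.04 ± 0.33 and -0.82 ± 0.27, and CCL14 differed by 0.46 in RB and by -0.55 in non-RB cows (unadjusted p = 0.0137). With the same correction IGCGAMMA and CARTPT changed sign as well.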

How the data were processed

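The authors deposited Agilent Feature Extraction (version 9.5, per the submitters' processing notes) intensity files of 1-colour (Cy3) arrays, and a log2 table. The deposited log2 values equal the log2 processed intensity minus the 75th percentile of the array plus a constant of 0.00420 to 0.0140, and this table was used. Arrays held 15208 probes, 7610 with a gene name. A probe was tested when 4 or more of the 16 RB arrays had it well above background (8 or more of 32 between groups). RB arrays had 75th percentiles of 2297 to 4857 intensity units and 78.2% to 85.8% of probes well above background, and the 4 numbers limit the precision. Differences were tested with limma 3.58.1 in R 4.3.3, two-sided, with Benjamini-Hochberg adjustment over all probes tested, after a check on simulated data. Same-number CAR and ICAR means deviated together (r = 0.42 to 0.78 for the 4 numbers), so the numbers, taken from the labels, were used as pairs. For numbers 1 and 4 number and slide almost coincided, so a shared slide cannot be told apart from a shared animal there. RB numbers 2 and 3 share a slide.

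Named genes were the 12 largest called differences in each direction with the same sign in every pair, up to 4 called genes a list, and the 3 smallest p-values in each direction where none was called. With the labels as given the first rule named none, so it was applied to the fit of 7 pairs. Some genes that met these rules are not reported here. Of several probes of a gene the one with the smallest p was taken. The members and lists were chosen with earlier results of these data known. The alternatives were other filters, normalizations, background correction, blocks and the removal of each number. Control spots were left out. Outlier spots, at most 29 on an RB array, were kept in the deposited values and left out only in the alternatives recomputed from the intensity files, normexp among them.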

Additional observations from a re-analysis of the deposited data

Results flagged for a closer look

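Of 108 sets of 4 or 8 values examined for a value far from the others, 2 held one, and chance flags about 1 in 20 such sets. The mean correlation of the CAR-ICAR differences of the contralateral pair of number 3 with the other 7 RB pairs was -0.61, with a gap to the next pair of 0.906 of the whole range. The labels of this pair and its values run in opposite directions, and the cause was not tested.

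For PKP3, the desmosomal plakophilin, the difference of number 3 was 0.24, far above those of numbers 1, 2 and 4 (gap 0.837 of the range). It is the mean of -1.39 in the ipsilateral horn and 1.86 in the contralateral pair that ran opposite.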

How the results depend on the processing

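With the labels as given the count of called probes was 0 in the paired limma fit and remained 0 with no replicate block (1192 unadjusted) and with a random replicate block (2977), while leaving out 1 number at a time gave 0 to 1027, the highest without number 3. It was 2 in the ipsilateral horn alone, 2472 without the contralateral pair of number 3, 2911 also without the ipsilateral pair of number 2, and 2016 by the methods' t-test unadjusted. The fit of 7 pairs (2472 calls) gave 0 to 2288 when a number was left out, with 0 without number 4, 851 without number 1 and 1027 without number 3, and 816 with no replicate block, 3727 with a random replicate block, 3771 by the methods' t-test unadjusted and 937 at a fold of at least 2. All settings of the fit of 7 pairs, and that without the opposite pair, were added after seeing the data. Filters, quantile normalization, normexp and the slide as a block kept that count between 2027 and 3413. Normexp shifted the median interaction of all probes to 0.14. The non-RB comparison gave 0 to 102 calls when a number was left out, 102 without number 2. The horn and group comparisons stayed at 0 in all settings run.

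Of 1088 values of named genes under other settings 928 kept their side of the threshold and direction, 153 passed it only there and 7 reversed. The reference was the fit with the labels as given, in which no named gene was called, so keeping their side meant staying uncalled. The settings for the RB differences include the fit of 7 pairs, which chose the leading and list genes as called. Passing the threshold there was fixed by that choice. NKG7 in RB cows was 0.0455 with normexp, and PTGER3 and ANKS4B were -0.0531 and 0.290 in the contralateral horn alone. With normexp the differences between RB and non-RB cows were 0.23 for NKG7, 0.0296 for IGCGAMMA and 0.23 for CARTPT, and the difference between horns was -0.0354 for IRAK2. The cause was not tested. Low signal limits GABRB1 and NXPH1 in ICAR to bounds.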
